A study of Rattus norvegicus with 82 samples.

Results

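Cardiomyocytes of the right ventricle (RV) under pressure load at the compensated, hypertrophic stage were compared with RV cardiomyocytes of sham-operated rats. The groups are RV PAB-H, with 6 libraries from animals with pulmonary artery banding (PAB), and RV Sham-H, with 7 libraries, together 13 of the 82 libraries of the series. Members were taken from the sample titles, by the ventricle and the group name. All animals were rats of the F1 generation from a female Wistar Kyoto and a male Lewis parent, given in the labels as 11 weeks old and sampled 7 weeks after surgery. PAB-H held 4 male and 2 female animals and Sham-H 3 male and 4 female ones, and each animal gave 1 RV and 1 LV (left ventricle) library. The band was a clip that does not constrict when it is placed, so that load rises slowly as the animal grows. The labels describe weanling animals of 6 months at banding, whereas the methods place banding in weanlings at 7 weeks of age, and with sampling 7 weeks later neither age can be joined with the 11 weeks of the labels. Hearts were digested with collagenase in a Langendorff apparatus, the ventricles were minced separately, and cardiomyocytes were enriched by filtration and centrifugation without a sort, so that other cell types can remain. Total RNA was depleted of ribosomal RNA before sequencing.

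Pulmonary artery banding narrows the outflow of the RV, a thin-walled chamber that normally pumps against low pressure. Under sustained load a cardiomyocyte grows in width, adds sarcomeres and turns on part of the fetal gene program, such as natriuretic peptides, skeletal α-actin and the slow β-myosin heavy chain. Load is also known to activate fibroblasts, which secrete collagens and other matrix proteins, and in a bulk sample fewer cells of a type and less RNA per cell cannot be told apart.

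Total counts per library ran from 11445900 to 14332279 in RV PAB-H and from 11530325 to 19570777 in RV Sham-H. Of the 17337 genes of the table, 11954 passed the filter on low counts. Values of single genes below are normalized counts, which are raw counts scaled to a common library size. Log2 fold changes are given with their standard error (SE). A gene is called higher or lower at an adjusted p under 0.05 in edgeR's quasi-likelihood test, fitted to all 82 libraries. Myh6, a myosin heavy chain of cardiomyocytes, had the highest mean normalized count of all genes tested in RV PAB-H. RV PAB-H replicates 1 and 2 stood apart. Replicate 2 had a median correlation of 0.963 with the other libraries of its group, against 0.976 to 0.981 for the other 5. The summed level of the fibroblast markers was 2983 and 5253 CPM (counts scaled by library size) in replicates 1 and 2, against 840 to 1203 CPM in the other PAB-H libraries and 509 to 1083 CPM in Sham-H. The summed level of the ventricular cardiomyocyte markers was 59834 CPM in replicate 2, the lowest of the 13, 81365 to 112189 CPM in the other PAB-H libraries and 102427 to 116430 CPM in Sham-H. Results that rest on them are therefore given also without replicate 2 or without replicates 1 and 2.

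With all libraries, 467 of the genes tested were called higher in RV PAB-H (3.91%) and 71 lower (0.594%). Of the higher ones, 400 had their highest PAB-H value in replicate 2, and of the lower ones 51 had their lowest value there. Without replicate 2, 23 genes were called higher (0.191% of the 12013 genes tested) and 4 lower (0.0333%), and all 27 (0.225%) were also called with the full set. Without replicates 1 and 2 the counts were 26 higher (0.215%) and 8 lower (0.0662%), all 34 (0.281%) again among the 538 (4.5%). Of the 467 genes, 467 kept a log2 fold change above 0 without replicate 2 and 464 without replicates 1 and 2, while their median log2 fold change went from 1.001 to 0.72 and 0.55. The genes called lower had medians of -0.57, -0.50 and -0.56 in these fits. Both sets were picked by tests on these same libraries, so the kept signs follow in part from the choice. Libraries did not overlap between the groups for 158 genes that were higher (1.32%) and 229 that were lower (1.92%), of which 83 and 36 were also called. By the study's criteria (unadjusted p at most 0.01, absolute log2 fold change over 1 and mean over 50), 212 genes were higher (1.77%) and 5 lower (0.0418%) with the unshrunken changes of edgeR. Without replicate 2 these counts were 48 and 4, and with shrunken DESeq2 fold changes 120 and 1. With sex as a covariate, 326 genes had an adjusted p under 0.05. The fit used all 82 libraries. Fitted to the 13 libraries alone, edgeR called 1016 genes higher and 626 lower, and limma-voom with a weight for each library called 1281 and 797.

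**Figure D1:**
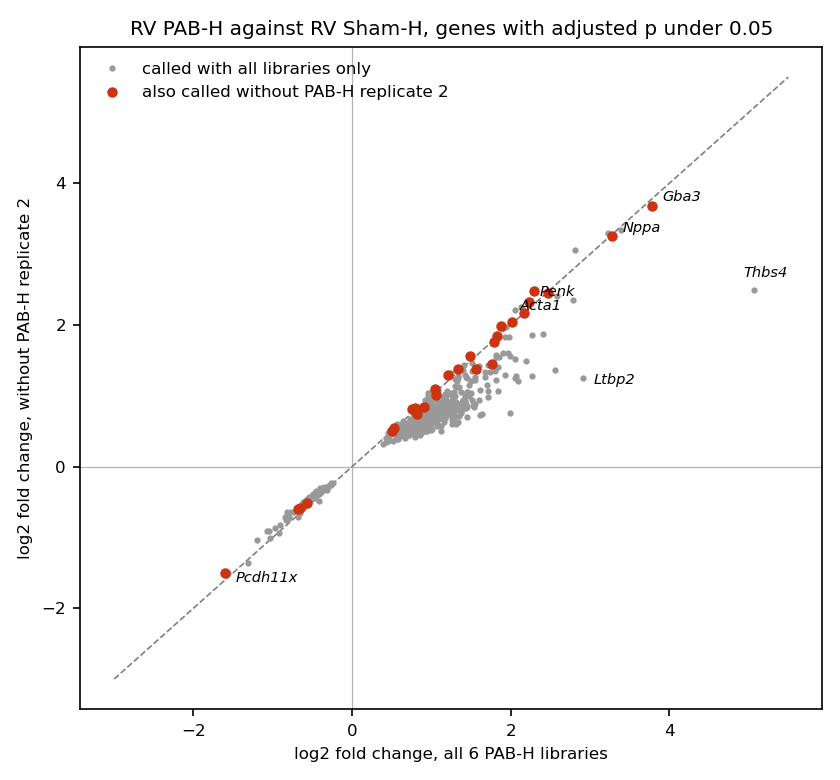
Log2 fold changes of the 538 genes called between banded and sham RV libraries, with all 6 PAB-H libraries (x axis) and without replicate 2 (y axis). Each point is a gene, the dashed line marks equal values, and red points are the 27 genes called in both fits. Thbs4 went from 5.07 to 2.50, whereas Nppa stayed near the line with 3.28 and 3.26.

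A set of 26 genes was called whichever 1 of the 13 libraries was left out, 22 of them higher and 4 lower after banding. By the size of the change, the higher genes included Nppa, Tceal7, Penk, Ankrd23, Acta1, Sypl2, Tgfb2, Figf, Cpeb1, Dusp26, Akip1, Nppb, Hyal1 and Fstl3. The remaining 8, named here after their values were seen, were Gba3, Slc9b2, Ecm1, Setd7, Wnk4, Crym, Tln1 and Anxa5, with log2 fold changes between 0.50 (Anxa5) and 3.78 (Gba3). Gba3, a cytosolic β-glucosidase, stayed at low counts, with at most 11.5 normalized counts in PAB-H and at most 1.43 in Sham-H. The 4 lower genes were Pcdh11x, Phactr1, Sobp and Ppp1r3d. In 18 of the 26 genes the libraries of both groups did not overlap, 15 of them higher and 3 lower. Over all genes tested the shares were 1.32% and 1.92%. The 26 were picked by tests on these same libraries, so the separation follows in part from the choice.

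To show the regulatory sequence in front of genes that rose, the 250 bases upstream of the annotated start are given for 5 of them, from RefSeq on the rat build GRCr8. The 5 are natriuretic peptides A and B, skeletal actin and the load-responsive genes Tceal7 and Ankrd23. Capitals mark letters that match 1 of 4 motifs searched on both strands, the M-CAT element CATTCC (bound by TEAD factors), the AP-1 element TGANTCA, the GATA element AGATAA and the CArG box (bound by serum response factor), and GGAATG is M-CAT read on the other strand. Nppa lies at chr5:163711934-163712183 on the plus strand, Nppb at chr5:163699758-163700007 on the plus strand, Acta1 at chr19:68784195-68784444 on the minus strand, Tceal7 at chrX:104019834-104020083 on the plus strand and Ankrd23 at chr9:46274511-46274760 on the minus strand. Sequences run 5′ to 3′ towards the start site.
Nppa: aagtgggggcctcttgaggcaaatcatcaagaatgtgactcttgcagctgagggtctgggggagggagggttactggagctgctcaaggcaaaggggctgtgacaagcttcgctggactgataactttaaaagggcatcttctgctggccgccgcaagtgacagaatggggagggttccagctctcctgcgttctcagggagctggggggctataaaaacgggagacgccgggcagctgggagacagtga
Nppb: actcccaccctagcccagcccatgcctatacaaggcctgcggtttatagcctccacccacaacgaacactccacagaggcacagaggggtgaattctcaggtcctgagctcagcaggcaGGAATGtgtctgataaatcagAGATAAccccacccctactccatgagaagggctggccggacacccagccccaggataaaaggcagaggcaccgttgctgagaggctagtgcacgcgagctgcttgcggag
Acta1: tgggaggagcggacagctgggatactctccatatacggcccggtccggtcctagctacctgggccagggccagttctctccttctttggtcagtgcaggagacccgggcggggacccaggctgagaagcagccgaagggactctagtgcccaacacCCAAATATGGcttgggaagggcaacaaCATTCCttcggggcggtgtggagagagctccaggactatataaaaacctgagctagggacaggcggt
Tceal7: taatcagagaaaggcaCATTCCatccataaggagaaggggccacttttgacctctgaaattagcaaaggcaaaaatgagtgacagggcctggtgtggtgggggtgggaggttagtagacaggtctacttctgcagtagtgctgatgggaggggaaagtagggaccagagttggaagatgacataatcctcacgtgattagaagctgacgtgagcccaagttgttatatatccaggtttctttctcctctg
Ankrd23: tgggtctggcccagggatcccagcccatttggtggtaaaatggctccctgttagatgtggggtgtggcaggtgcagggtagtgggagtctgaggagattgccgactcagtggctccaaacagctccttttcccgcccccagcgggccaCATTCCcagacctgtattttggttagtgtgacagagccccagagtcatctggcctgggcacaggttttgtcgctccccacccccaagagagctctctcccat

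M-CAT letters stand in 4 of these 5 windows, at -131 to -126 of Nppb, -67 to -62 of Acta1, -234 to -229 of Tceal7 and -102 to -97 of Ankrd23, counted from the start site. Acta1 also holds a CArG box at -94 to -85 and Nppb a GATA element at -110 to -105. None of the 4 motifs, in the letters searched, was found in the Nppa window. Other forms of these elements, such as TGATAA, were not searched. Of the 19 genes called with and without replicate 2 that are the largest in change at a mean count over 50 (15 higher, 4 lower), 17 had a promoter entry, and 5 of these (29.4%) held CATTCC on either strand, 4 of them higher and 1, Pcdh11x, lower in PAB-H. The 4 higher ones are all among the 5 windows shown, so the share in those windows overstates that of the set. The same letters stood in 14.4% of the promoters of all genes called higher, in 18.5% of those called lower, in 10% of the promoters of all genes tested (9575 with an entry) and in 11.8% of all 27457 promoters. AGATAA was found in 2 of the 17 (11.8%, against 5.74% of the genes tested), a CArG box in 1 (5.88%, against 1.13%), and TGANTCA in 0 (against 4.52%). These are matches of letters in a window, and binding was not measured.

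Among the natriuretic peptides, hormones released by stretched myocardium, Nppa stood at 2272, 3341, 5401, 1873, 3161 and 2734 normalized counts in PAB-H replicates 1 to 6. The Sham-H libraries held 409, 289, 274, 436, 141, 321 and 386 normalized counts. Every banded library thus lay above every sham library, and the log2 fold change was 3.28 (SE 0.60, adjusted p = 0.000846) in edgeR. Nppb had 2143, 2848, 5551, 4412, 4889 and 3585 normalized counts in PAB-H and 828 to 2143 (median 1729) in Sham-H. Here replicate 1 lay level with the highest sham library and the other 5 above it, with a log2 fold change of 1.21 (SE 0.24, adjusted p = 0.00238). Without replicate 2 the changes were 3.26 (adjusted p = 0.00251) for Nppa and 1.29 (adjusted p = 0.00323) for Nppb, by the same test.

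Acta1, the skeletal α-actin of fetal and loaded myocardium, had 6156, 19630, 29539, 25056, 28853 and 20280 normalized counts in PAB-H. In Sham-H it had 8124, 7304, 8937, 3936, 2603, 2746 and 3830, the first 3 of which are male. Replicate 1 fell within the sham range and the other 5 banded libraries were above it, and the log2 fold change was 2.01 (SE 0.39, adjusted p = 0.00184) by edgeR and 2.04 (adjusted p = 0.00442) without replicate 2. Actc1, the adult cardiac α-actin, stood at 162773 ± 28862 (SD, n = 6) normalized counts in PAB-H and at 165019 ± 10290 (SD, n = 7) in Sham-H, and its change of -0.02 (SE 0.17, adjusted p = 0.969) did not pass the test. Levels between genes were compared per length, as FPKM, which divides the reads of a gene by its length and the library size. On this scale Acta1 made up 11.9% ± 4.04 (SD, n = 6) of Acta1 and Actc1 together in PAB-H and 3.17% ± 1.38 (SD, n = 7) in Sham-H. The share was 4.32%, 14.8%, 15.03%, 13.3%, 13.2% and 10.4% in PAB-H replicates 1 to 6, of which only replicate 1 lay within the sham range of 1.65% to 4.90%. Within males the means were 11.9% (n = 4) and 4.59% (n = 3), and within females 11.8% (n = 2) and 2.10% (n = 4). The difference of 8.68 percentage points had p = 0.00466 in an exact two-sided permutation test, whose smallest possible p is 0.00117.

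Myh7, the slow β-myosin heavy chain, had 97811, 152720, 185050, 140990, 122790 and 122640 normalized counts in PAB-H and 69528, 88237, 117140, 44127, 48234, 51569 and 63563 in Sham-H. The banded libraries were above all sham libraries except replicate 1, which lay below the male Sham-H replicate 3, and the change of 0.99 (SE 0.33, adjusted p = 0.0622) did not pass edgeR's test over all genes. Fitted to the 13 libraries alone, Myh7 passed with an adjusted p of 0.0140. Myh6, the fast α-myosin heavy chain, had a log2 fold change of -0.35 (SE 0.29, adjusted p = 0.531). As a share of Myh6 and Myh7 in FPKM, Myh7 took 18.96% ± 6.13 (SD, n = 6) in PAB-H and 8.10% ± 3.10 (SD, n = 7) in Sham-H, with ranges of 13.1% to 28.2% and 5.42% to 13.98%. The difference was 10.9 percentage points (p = 0.00233, exact two-sided permutation test). Within males the means were 21.5% (n = 4) and 10.9% (n = 3), and within females 13.8% (n = 2) and 6.04% (n = 4). Both pairs of genes are close paralogs, and the treatment of reads that map to both is not given in the sources used here.

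**Figure D2:**
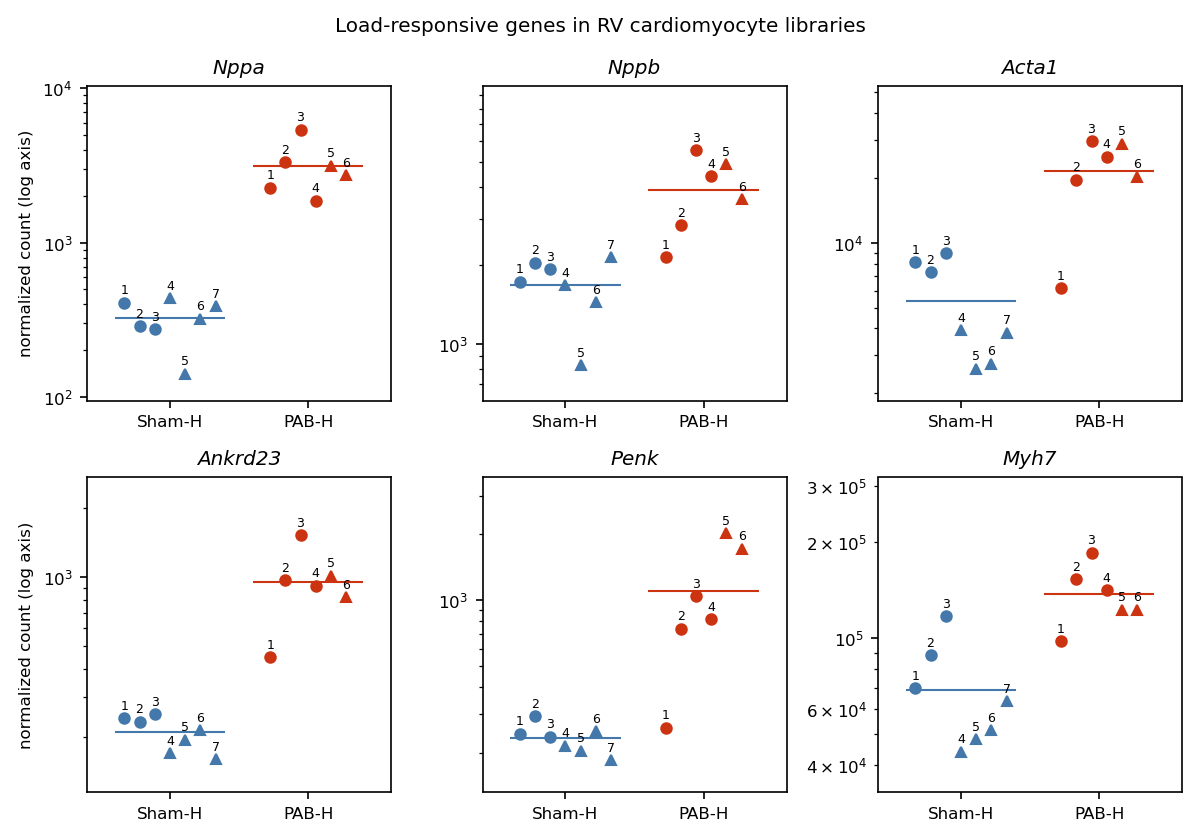
Normalized counts (log axis) of 6 load-responsive genes in the 7 RV Sham-H (blue) and 6 RV PAB-H (red) libraries. Circles are male and triangles female animals, numbers are replicates, and lines are group means. For Nppa and Ankrd23 all banded libraries lie above all sham libraries, while replicate 1 is the lowest banded library for Nppb, Acta1, Ankrd23, Penk and Myh7.

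Other load-responsive genes of the cardiomyocyte were split between the groups in a similar way. Ankrd23, a muscle ankyrin repeat protein that binds titin, had 449, 975, 1526, 920.5, 1017 and 817 normalized counts in PAB-H against 161 to 252 (median 216) in Sham-H, without overlap, and a log2 fold change of 2.17 (SE 0.41, adjusted p = 0.00138). Its relative Ankrd1 had 29338, 36360, 48556, 45294, 49597 and 45441 against 22221 to 33785 (median 27388) normalized counts. All PAB-H libraries but replicate 1 were above the sham range, and the change of 0.62 (SE 0.24, adjusted p = 0.105) did not pass edgeR's test, though it did with the 13 libraries alone (adjusted p = 0.00992). Tceal7, a small nuclear protein of the transcription elongation factor A-like family, stood at 21.6, 75.95, 96.99, 71.3, 70.3 and 80.3 against 4.35 to 19.2 (median 12.4) normalized counts. No library overlapped, though replicate 1 was close to the sham range, and Tceal7 changed by 2.48 (SE 0.50, adjusted p = 0.00309) on the log2 scale. Myl4, the atrial light chain that is also expressed in the fetal ventricle, had 414, 35.3, 28.2, 15.3, 57.6 and 95.1 normalized counts in PAB-H. Its value in replicate 1 stood far above the other banded libraries, and Sham-H held 6.67 to 45.7 (median 19.96). Myl4 was called with all libraries, at 2.29 (SE 0.54, adjusted p = 0.0106), and not without replicate 1, where its log2 fold change was 1.06 (adjusted p = 0.258). Sln, an atrial regulator of the calcium pump, was likewise highest in replicate 1, with 223, 58.3, 67.8, 45.8, 39.1 and 86.4 normalized counts against 32.4 to 75.5 (median 44.4) in Sham-H (adjusted p = 0.257, edgeR). Of the 6 atrial markers tested, 2 were called higher (33.3% of a short list, beside 3.91% of all genes tested), Myl4 and Nppa.

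Of the list of 39 load markers of the cardiomyocyte, 5 were called higher, with and without replicate 2, and 0 lower. They are Nppa, Nppb, Acta1, Tceal7 and Myl4, and 12.8% compares with 3.91% of all genes tested. Like the other lists, this one was chosen with earlier results of these data known, so its share is not independent of them. The median log2 fold change of the list was 0.38, against 0.00 over all genes, 0.44 without replicate 2 and 0.25 without replicates 1 and 2, where 4 members were called. The mean level of the list was above that of each sham library in each of the 6 banded libraries, by between 0.39 and 0.74 on the log2 scale relative to the Sham-H mean, where the sham libraries ranged from -0.13 to 0.16.

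Sypl2 (synaptophysin-like 2, a protein of muscle triad membranes) had 63.1, 147, 236, 169, 192 and 163 normalized counts in PAB-H against 32.4 to 62.9 (median 43.5) in Sham-H. Replicate 1 lay only just above the highest sham library and the other banded libraries well above it, and the log2 fold change was 1.82 (SE 0.33, adjusted p = 0.000726). Akip1, a binding partner of protein kinase A, had 52.3, 111, 198, 143, 139.7 and 154 against 43.5 to 66.5 (median 48.6) normalized counts and a change of 1.34 (SE 0.32, adjusted p = 0.0113). Here replicate 1 was within the sham range. Dusp26, a dual-specificity phosphatase, stood at 41.5, 37.98, 62.6, 56.003, 62.5 and 59.3 against 13.3 to 25.9 (median 19.96) normalized counts, with no overlap between groups and a change of 1.48 (SE 0.26, adjusted p = 0.000462). Cpeb1, which binds polyadenylation elements of mRNA, had 50.5, 152, 129, 90.6, 79.1 and 75.3 against 24.8 to 41.98 (median 31.3) and rose by 1.56 (SE 0.32, adjusted p = 0.00323). Hyal1, a hyaluronidase of the lysosome, had 171, 258, 235, 265, 205 and 204 against 84.2 to 146 (median 108) normalized counts and rose by 1.05 (SE 0.23, adjusted p = 0.00536) on the log2 scale. For Cpeb1 and Hyal1 all banded libraries were above all sham libraries.

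Of 26 sarcomere genes tested, 0 were called by edgeR in either direction (7 had an unadjusted p under 0.05), with a median log2 fold change of -0.15. Tnni3, cardiac troponin I, had a change of -0.48 (SE 0.16, adjusted p = 0.07) and Tpm4, a tropomyosin of low level in adult myocardium, one of 0.62 (SE 0.20, adjusted p = 0.0502). Of 26 calcium cycling genes 1 was called (3.85%, beside 3.91% of all genes tested called higher), Atp2b4, a calcium pump of the plasma membrane, which was higher by 0.94 (SE 0.25, adjusted p = 0.0227). Without replicate 2 its log2 fold change was 0.72 (adjusted p = 0.294), not past the threshold. Pln, the inhibitor of the sarcoplasmic calcium pump, had 60011, 44436, 54006, 57549, 63201 and 60978 normalized counts in PAB-H and 64136 to 73624 (median 69008) in Sham-H. All banded libraries lay below all sham libraries by this gene, yet its change of -0.28 (SE 0.16, adjusted p = 0.328) passed the test only with the 13 libraries alone (adjusted p = 0.0369) and in limma-voom with library weights (adjusted p = 0.0261). Atp2a2, the pump itself, had a log2 fold change of -0.22 (SE 0.18, adjusted p = 0.544). The summed ventricular cardiomyocyte markers, which include Pln and Tnni3 themselves, were lowest in replicate 2. The part of cardiomyocyte content in the values of this paragraph was not tested.

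Among 35 ion channel and connexin genes, 2 were called higher (5.71%, beside 3.91% of all genes tested) and 1 lower (2.86%, beside 0.594%). Cacna1g and Cacna1h encode the T-type calcium channels Cav3.1 and Cav3.2. Cacna1g had 453, 515, 479, 284, 425 and 432 normalized counts in PAB-H against 189.7 to 314 (median 244) in Sham-H, with replicate 4 within the sham range, and rose by 0.85 (SE 0.25, adjusted p = 0.0349) on the log2 scale. Cacna1h had 869, 477, 583, 426, 769.9 and 743 against 697 to 1487 (median 1283) normalized counts, and its log2 fold change was -0.80 (SE 0.23, adjusted p = 0.0345). The sham libraries split by sex for this gene, with the 3 males at 697 to 860 and the 4 females at 1283 to 1487. Gja5 (connexin 40) had a change of 0.91 (SE 0.26, adjusted p = 0.034). None of the 3 was called without replicate 2, at 0.79 (adjusted p = 0.242), -0.72 (adjusted p = 0.264) and 0.64 (adjusted p = 0.387).

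The smallest adjusted p of all genes was that of Penk, the precursor of the enkephalins, opioid peptides that the heart also makes. It had 261, 738, 1040, 815, 2015 and 1718 normalized counts in PAB-H replicates 1 to 6 and 245, 294, 237, 215, 205, 252 and 186 in Sham-H. Replicate 1 fell within the sham range, and the female replicates 5 and 6 were the highest. Penk had a log2 fold change of 2.23 (SE 0.35, adjusted p = 0.000164), and of 2.32 (adjusted p = 0.000134) without replicate 2. The LV held more of it under both conditions, with 1997 ± 819 (SD, n = 7) normalized counts in LV Sham-H and 2320 ± 526 (SD, n = 6) in LV PAB-H.

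Tgfb2, a ligand of the TGF-β family, had 185, 461, 554, 464, 487 and 327 normalized counts in PAB-H and 90.3 to 185 (median 108) in Sham-H. Replicate 1 was level with the highest sham library and the other 5 well above it. Its log2 fold change of 1.79 (SE 0.40, adjusted p = 0.00566) compared with 1.75 (adjusted p = 0.0369) without replicate 2 and 1.93 (adjusted p = 0.0145) without replicates 1 and 2. Tgfb3, another ligand, had 498, 884, 241, 259, 235 and 172 normalized counts, against 127 to 219 (median 168) in Sham-H. Its high values were those of replicates 1 and 2, and its change went from 1.17 (SE 0.25, adjusted p = 0.00552) to 0.72 (adjusted p = 0.244) and 0.40 (adjusted p = 0.774). Fstl3, a secreted inhibitor of activins and myostatin, had 63.1, 63.6, 95.9, 79.4, 76.2 and 71.6 normalized counts against 26.6 to 50.04 (median 34.7), without overlap, and rose by 1.04 (SE 0.24, adjusted p = 0.00885). Of 41 ligands, receptors and inhibitors of TGF-β and BMP, 5 were called higher (12.2%, beside 3.91% of all genes tested) and 0 lower (beside 0.594%). Of these, 2 were also called without replicate 2, Tgfb2 and Fstl3. The other 3 were Tgfb3, the receptor Acvrl1 and Fstl1.

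Of 70 growth factors and their receptors, 12 were called higher (17.1%, beside 3.91% of all genes tested) and 0 lower (beside 0.594%). The median log2 fold change of the list was 0.38. Without replicate 2 the called ones were 2, Penk and Figf, and with sex as a covariate 7 were called higher and 1 lower. Figf, the lymphangiogenic factor VEGF-D, had 93.8, 145, 58.4, 70.3, 33.2 and 32.1 normalized counts in PAB-H against 10.1 to 31.5 (median 21.05) in Sham-H. All banded libraries were above the sham range, the 2 females by little, and the change was 1.77 (SE 0.34, adjusted p = 0.00168). Without replicates 1 and 2, the libraries with the most fibroblast marker RNA, it was 1.18 (adjusted p = 0.191). Nox4, an NADPH oxidase that makes hydrogen peroxide, had 65.8, 245, 90.7, 89.6, 60.6 and 59.3 against 31.2 to 49.8 (median 41.3) normalized counts, again without overlap, and went from 1.36 (SE 0.33, adjusted p = 0.0112) to 0.88 (adjusted p = 0.298) without replicate 2. The other called members were Igfbp4, Fgfr3, Pdgfra, Pdgfrb, Flt1, Flt4, Angptl2, Ednrb and Ace, with log2 fold changes between 0.78 and 1.22.

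In 5 lists of extracellular matrix genes the share called higher was above the 3.91% of all genes tested. Of 21 collagens tested, 9 were called higher (42.9%), as were 8 of 29 genes of collagen processing and crosslinking, 4 of 6 small leucine-rich proteoglycans, 15 of 44 matricellular proteins and 10 of 40 matrix proteases and inhibitors. Only 1 gene of these lists was called lower, Tgfbi, a TGF-β-induced matrix protein, at -0.41 (SE 0.12, adjusted p = 0.035) in edgeR. The median log2 fold changes of the 5 lists were 0.66, 0.32, 1.39, 0.90 and 0.47. Without replicate 2, 1 gene of the 5 lists was called, Ecm1, and the medians were 0.50, 0.25, 0.81, 0.65 and 0.37. Without replicates 1 and 2 they were 0.21, 0.19, 0.46, 0.38 and 0.21. With sex as a covariate the 5 lists had 2, 7, 3, 11 and 5 genes called higher.

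Col1a1, a chain of the main fibrillar collagen, shows how the banded libraries differed, with 3402, 6744, 1433, 1382, 1199 and 1082 normalized counts in replicates 1 to 6 against 654 to 1339 (median 991) in Sham-H. Replicates 1 and 2 stood above the rest, replicates 3 and 4 slightly above the highest sham library, and 5 and 6 within the sham range. The change was 1.30 (SE 0.36, adjusted p = 0.0272) with all libraries, 0.72 (adjusted p = 0.473) without replicate 2 and 0.29 (adjusted p = 0.949) without replicates 1 and 2. Col3a1, the chain of type III collagen, had 7572, 15240, 3438, 2943, 2268 and 2087 against 1632 to 2686 (median 2104) normalized counts, with changes of 1.37 (adjusted p = 0.0227), 0.76 and 0.30 in the same 3 fits. Col8a1, a short-chain collagen, had the smallest adjusted p of the collagens. Its normalized counts were 202, 766, 141, 131, 98.7 and 62.98 against 40.5 to 72.7 (median 55.3), and its change went from 2.09 (SE 0.41, adjusted p = 0.00184) to 1.21 (adjusted p = 0.194) without replicate 2.

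The same 2 libraries led most other matrix genes. Dcn, the proteoglycan decorin that binds collagen fibrils, had 3748, 6495, 996, 1299, 951 and 869 normalized counts against 434 to 1171 (median 931) in Sham-H, and Lum (lumican), of the same family, 741, 1694, 213, 277, 187 and 185 against 69.9 to 222 (median 161). Their log2 fold changes of 1.44 (SE 0.35, adjusted p = 0.0113) and 1.84 (SE 0.41, adjusted p = 0.00566) became 0.21 and 0.48 without replicates 1 and 2. Postn, periostin of activated fibroblasts, had 87.5, 518, 56.3, 48.9, 54.7 and 39.5 normalized counts, of which replicate 2 stood far above the rest, against 12.4 to 49.2 (median 38.1) in Sham-H. Its change was 1.99 (SE 0.61, adjusted p = 0.0435) with all libraries and 0.76 (adjusted p = 0.716) without replicate 2. Thbs4 (thrombospondin 4) had 96.5, 1218, 37.5, 17.3, 28.3 and 17.3 normalized counts, against 3.38, 0, 3.56, 32.6, 3.47, 4.80 and 1.24 in Sham-H, where replicate 4 was far above the other 6. Its change of 5.07 (SE 0.86, adjusted p = 0.000354) went to 2.50 (adjusted p = 0.177) without PAB-H replicate 2. Ltbp2 and Cilp, matrix proteins that bind or restrain TGF-β family signaling, went from 2.91 to 1.25 (adjusted p = 0.497) and from 2.27 to 1.27 (adjusted p = 0.264). For Cilp all 6 banded libraries still lay above the sham range, which ended at 56.6 normalized counts.

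Among the crosslinking enzymes, Loxl2, a lysyl oxidase, had 253, 366, 177, 122, 118 and 102 normalized counts against 60.9 to 112 (median 86.9) in Sham-H and went from 1.08 (SE 0.24, adjusted p = 0.00566) to 0.79 (adjusted p = 0.177) without replicate 2. Plod2, which hydroxylates collagen lysines, went from 1.35 (SE 0.30, adjusted p = 0.00587) to 0.87 (adjusted p = 0.249). Fap, a protease of activated fibroblasts, was above the sham range in every banded library, with 74.8, 171, 74.05, 88.6, 75.2 and 55.6 against 22.8 to 53.5 (median 31.6) normalized counts. The change of Fap was 1.29 (SE 0.29, adjusted p = 0.00566) by edgeR and 1.002 (adjusted p = 0.142) without replicate 2. Ecm1, a secreted glycoprotein of the matrix, was the member that was called in every such fit, at 0.91 (SE 0.20, adjusted p = 0.00566), 0.85 (adjusted p = 0.0466) and 0.91 (adjusted p = 0.0322). Among 32 laminins, perlecan and integrins only Lama4, a laminin chain of the basement membrane, was called (3.12%, beside 3.91% of all genes tested called higher). It had 2993, 4494, 4115, 3725, 3584 and 3315 normalized counts against 2219 to 2611 (median 2499), without overlap, at 0.60 (SE 0.15, adjusted p = 0.0129) with all libraries and 0.54 (adjusted p = 0.134) without replicate 2.

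**Figure D3:**
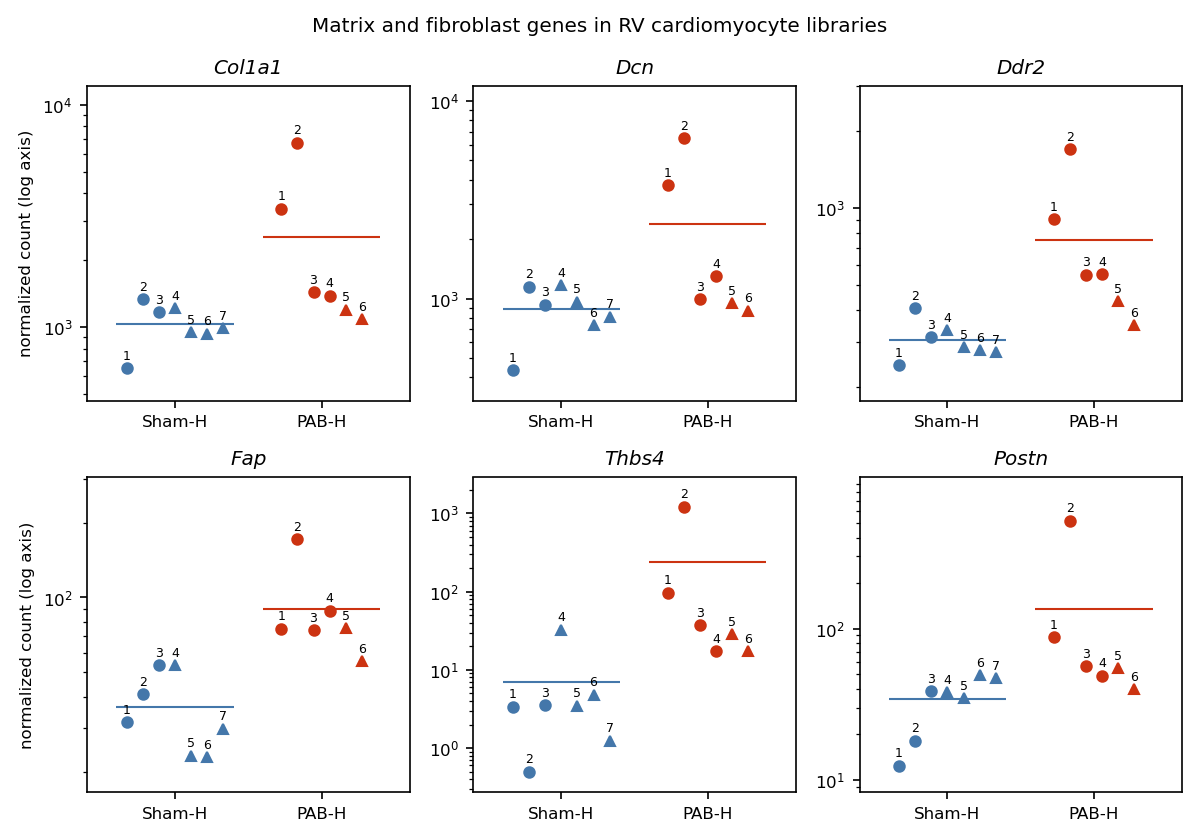
Normalized counts (log axis) of 6 matrix and fibroblast genes in RV Sham-H (blue) and RV PAB-H (red) libraries. Circles are male and triangles female animals, numbers are replicates, and lines are group means. PAB-H replicates 1 and 2 lead every panel but that of Fap, where replicate 4 is second. A value of 0, as in Sham-H replicate 2 for Thbs4, is drawn at 0.5.

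Markers of other cell types moved with these lists. Of 14 fibroblast markers tested, 13 were called higher with all libraries, 8 with sex as a covariate and 0 without replicate 2, with medians of 1.33, 0.80 without replicate 2 and 0.35 without replicates 1 and 2. Ddr2, a collagen receptor of fibroblasts and the most significant of them, had 903, 1702, 549, 552, 431 and 348 normalized counts against 242 to 405 (median 286), and its change went from 1.30 (SE 0.23, adjusted p = 0.000726) to 0.87 (adjusted p = 0.0542). Of 10 activated fibroblast markers 6 were called, and their summed level was 315, 762, 279, 202, 174 and 113 CPM in PAB-H replicates 1 to 6 against 101 to 152 CPM in Sham-H, above the sham range in 5 of 6 banded libraries. Of 10 endothelial markers 2 were called (Pecam1 and Esam), of 10 mural markers 2 (Pdgfrb and Mcam), of 11 macrophage markers 0 by edgeR (7 at an unadjusted p under 0.05) and of 4 mesothelial markers 1 (Wt1). These are 20%, 20%, 0% and 25% of short lists, beside 3.91% of all genes tested called higher. Without replicate 2 the activated fibroblast, endothelial, mural and mesothelial lists had 0 calls by edgeR, and with sex as a covariate 4, 0, 1 and 0. Summed endothelial markers ranged from 1034 to 2211 CPM against 902 to 1223 CPM, and macrophage markers from 94.6 to 250 CPM against 82.3 to 124 CPM. Summed Schwann cell markers were 34.8 and 37.6 CPM in replicates 1 and 2 and at most 16.8 CPM in the other 11 libraries. Neutrophil and lymphocyte markers reached at most 18.1 and 2.38 CPM. Several markers, such as Col1a1, Dcn, Lum, Postn and Thbs4, are also members of the matrix lists, and the part of cell type content in the matrix values was not tested.

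**Figure D4:**
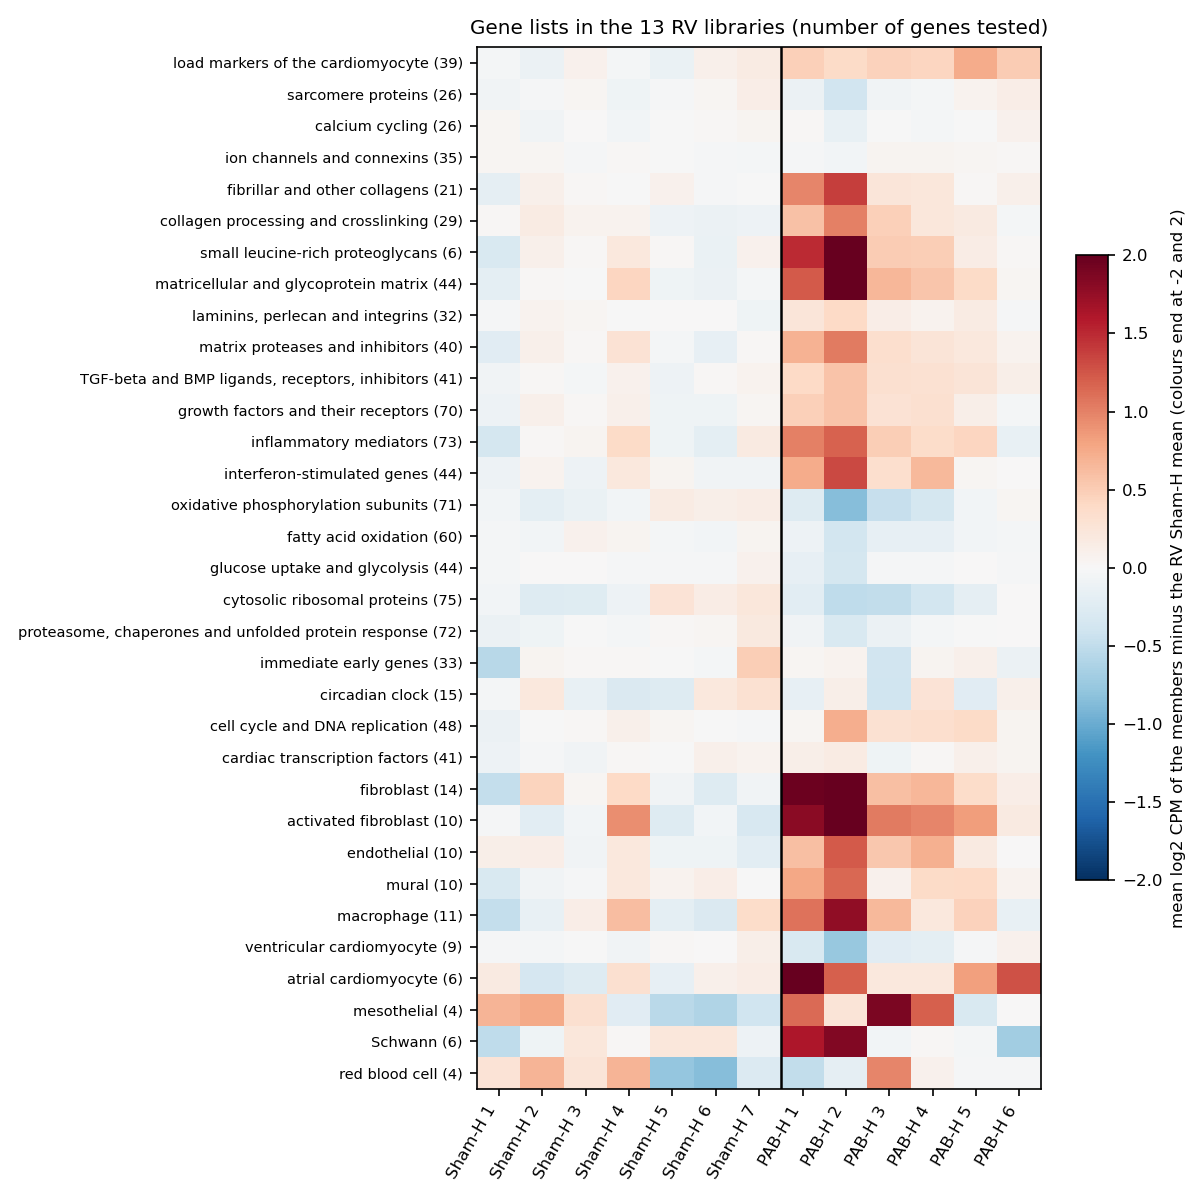
Mean log2 CPM of the tested members of each gene list (rows, with the number of genes) in the 13 RV libraries (columns), relative to the RV Sham-H mean. Red is higher and blue lower. PAB-H replicates 1 and 2 carry the highest values of the matrix, fibroblast, macrophage and Schwann cell lists, with 1.97 and 2.78 for fibroblast markers, while the load markers were higher in all 6 banded libraries.

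Immune genes showed the same concentration in few libraries. Of 73 inflammatory mediators 8 were called higher (11.0%, beside 3.91% of all genes tested) and 0 lower (beside 0.594%). The median log2 fold change of the list was 0.70, and 0 were called without replicate 2 and 5 with sex as a covariate. Tlr4, the receptor of bacterial lipopolysaccharide, had 81.2, 214, 115, 81.5, 46.9 and 82.7 normalized counts against 28.5 to 60.2 (median 43.9) in Sham-H, with 1 banded library within the sham range, and went from 1.23 (SE 0.29, adjusted p = 0.0107) to 0.88 (adjusted p = 0.258). C1r and C1s, proteases that start the complement cascade, were highest in replicates 1 and 2, with 1120 and 1655 normalized counts for C1r against 195 to 372 in Sham-H. Their log2 fold changes of 1.283 and 1.26 became 0.39 and 0.29 without these 2 libraries. Of 44 interferon-stimulated genes, 7 were called higher (15.9%, beside 3.91% of all genes tested). Of the 44, 43 had a log2 fold change above 0, with a list median of 0.63. Their highest PAB-H value was in replicate 2 for 41 of the 44. It was there also for 13 of 14 fibroblast markers, and for 0 of 71 oxidative phosphorylation subunits. This count was not made over all genes tested. Without replicate 2, 0 interferon-stimulated genes were called and the median was 0.43. With sex as a covariate 1 was called. In LV PAB-H against LV Sham-H the median of this list was 0.28, beside -0.01 over all genes tested, and 0 genes were called there. Rsad2 (viperin, an antiviral enzyme) had 241, 362, 237, 269, 112 and 92.6 normalized counts against 69.9 to 103 (median 88.03), with the 4 male libraries far above the sham range, the female replicate 5 just above it and replicate 6 within it. Rsad2 changed by 1.33 (SE 0.31, adjusted p = 0.00962). Without replicate 2 its log2 fold change was 1.12 (adjusted p = 0.135), not past the threshold.

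Energy metabolism genes had small negative log2 fold changes, and few passed the test. Of 71 nuclear-encoded subunits of oxidative phosphorylation, 0 were called by edgeR in either direction, 22 reached an unadjusted p under 0.05, and all 71 had a negative log2 fold change, with a median of -0.29 and a range from -0.68 to -0.07. The mean of the list was -0.26, -0.85, -0.46, -0.36, -0.05 and 0.05 in PAB-H replicates 1 to 6 relative to the Sham-H mean, and -0.19 to 0.16 in the sham libraries. Replicate 2 was the lowest and replicates 5 and 6, the 2 females, were within the sham range. The summed ventricular cardiomyocyte markers were lowest in the same replicate 2, and their part in these values was not tested. Without replicate 2 the median was -0.20, with 0 of 71 positive. The 75 cytosolic ribosomal proteins were alike, with 0 called (26 at an unadjusted p under 0.05), 72 negative and a median of -0.29. With the 13 libraries alone edgeR called 5 oxidative phosphorylation genes lower and 0 higher, and 13 ribosomal protein genes lower and 1 higher. In limma-voom with library weights, which gave replicate 2 the least weight, 30 and 26 were lower.

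Of 60 genes of fatty acid oxidation, 1 was called higher, Acsl5 (an acyl-CoA synthetase) at 0.80 (SE 0.22, adjusted p = 0.0272), and 1 lower, Etfb (a subunit of the electron transfer flavoprotein) at -0.48 (SE 0.14, adjusted p = 0.0352). Each is 1.67% of the list, beside 3.91% of all genes tested called higher and 0.594% lower. Without replicate 2 neither Acsl5 nor Etfb was called, at 0.59 (adjusted p = 0.345) and -0.39 (adjusted p = 0.313). The libraries of both groups did not overlap for 9 of the 60, all lower in PAB-H, which is 15% of the list beside 1.92% of all genes tested. Fitted to the 13 libraries alone, 15 members were called lower and 3 higher. Eci1, an isomerase of the pathway, was 1 of the 9, with 3279, 2282, 2636, 2819, 2714 and 2856 normalized counts against 3326 to 4139 (median 3498) and a change of -0.38 (SE 0.14, adjusted p = 0.0882). Of 44 genes of glucose uptake and glycolysis 0 were called (7 at an unadjusted p under 0.05). Eno3, the muscle enolase, had 6791, 3084, 4478, 4541, 4363 and 5157 against 6556 to 8810 (median 6980) normalized counts, lower in every banded library but replicate 1, and a change of -0.61 (SE 0.19, adjusted p = 0.0528), which passed with the 13 libraries alone (adjusted p = 0.0142). Of 72 genes of the proteasome, chaperones and the unfolded protein response 0 were called (9 at an unadjusted p under 0.05). Atf4, a transcription factor of the stress response, had a change of -0.41 (SE 0.15, adjusted p = 0.0799).

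Of 33 immediate early genes, 0 were called higher and 2 lower (6.06%, beside 0.594% of all genes tested). Fos, a subunit of AP-1, had 6213, 4482, 5593, 6445, 5426 and 6081 normalized counts in PAB-H and 5684 to 11693 (median 8236) in Sham-H and changed by -0.57 (SE 0.17, adjusted p = 0.0349), and Dusp5, a phosphatase of ERK, by -0.82 (SE 0.26, adjusted p = 0.0493). Neither was called with sex as a covariate or without replicate 2, where they were at -0.51 (adjusted p = 0.271) and -0.64 (adjusted p = 0.367). Of 48 genes of the cell cycle and DNA replication 4 were called higher (8.33%, beside 3.91% of all genes tested). They were Mcm3, Mcm6, Kif23 and Cdkn1c, with log2 fold changes of 0.98 to 1.17. In this list 0 were called without replicate 2 and 2 with sex as a covariate. Of 41 cardiac transcription factors 4 were called higher (9.76%, beside 3.91%). Tbx3, a factor of the conduction system, had 234, 278, 162, 139.5, 184 and 133 normalized counts against 84.6 to 130.0 (median 112) with no overlap, at 0.79 (SE 0.20, adjusted p = 0.0172), and Hey1, a target of Notch signaling, 65.8, 152, 82.4, 111, 107 and 95.1 against 34.9 to 78.01 (median 50.5), at 1.001 (SE 0.30, adjusted p = 0.0362). The other 2, Prdm1 and the fibroblast factor Tcf21, changed by 0.99 and 1.277. Without replicate 2 none of the 4 was called, and with sex as a covariate 1 gene of the list was. Of 15 circadian clock genes 0 were called by edgeR (1 at an unadjusted p under 0.05, Cry2).

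The 4 genes that stayed lower were Pcdh11x, Phactr1, Sobp and Ppp1r3d. Pcdh11x, a protocadherin of cell adhesion, had 167, 52.1, 54.2, 63.1, 51.8 and 74.1 normalized counts in PAB-H and 164 to 294 (median 238) in Sham-H. Replicate 1 lay in the sham range and the other 5 far below it, and the log2 fold change was -1.60 (SE 0.33, adjusted p = 0.00309) in edgeR. Phactr1, a regulator of protein phosphatase 1 and actin, had 429, 246, 327, 337, 359.6 and 389 against 504 to 601 (median 570.3) normalized counts and changed by -0.68 (SE 0.14, adjusted p = 0.00309). Ppp1r3d, which targets protein phosphatase 1 to glycogen, had 1741, 1125, 1207, 1299, 1398 and 1582 against 1879 to 2356 (median 2070) and changed by -0.57 (SE 0.12, adjusted p = 0.00407). Sobp, a nuclear zinc finger protein, had 317, 216, 277, 258, 302 and 361 against 406 to 522 (median 446) and changed by -0.66 (SE 0.13, adjusted p = 0.0023). For these last 3 every banded library was below every sham library.

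The same animals gave LV libraries, whose ventricle does not pump into the banded artery. In LV PAB-H against LV Sham-H, 0 genes were called by edgeR (0.00%), and 305 (2.55%) had an unadjusted p under 0.05. LV PAB-H replicate 2 and LV Sham-H replicate 4 had median correlations of only 0.933 and 0.932 with their groups. For the 22 genes that stayed higher in the RV, the median log2 fold change was 1.52 in the RV and 0.21 in the LV, and for the 4 that stayed lower -0.67 and -0.23. These genes were picked by their RV calls, so a smaller LV median follows in part from the choice. In the LV the log2 fold change was 0.19 (SE 0.38) for Acta1, for Penk 0.22 (SE 0.33), for Nppb 0.07 (SE 0.24) and for Nppa 1.16 (SE 0.56). Mean levels in LV Sham-H were above those in RV Sham-H, a difference that was not tested, for Acta1 with 13262 ± 7665 (SD, n = 7) normalized counts in LV Sham-H and for Nppa with 1893 ± 1085 (SD, n = 7). The difference between the ventricles in response to banding was called for 0 genes (1104, or 9.24%, at an unadjusted p under 0.05), so that in this fit the response is not shown to differ for any single gene. DESeq2 also called 0. With the animal as a block it was also called for 0 genes. Leaving out the animals of replicates 1 and 2 in that fit, an alternative chosen after seeing the data, gave 19 genes (0.166%), all with the larger response in the RV. These included Acta1 at 2.29, Nppa at 2.61, Nppb at 1.57, Penk at 2.22, Ankrd23 at 2.07, Sypl2 at 2.08 and Tgfb2 at 1.36 (adjusted p between 0.000485 and 0.0309).

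In RV AOB-H, the RV of rats with aortic banding (AOB), which shares its sham libraries with RV PAB-H, 0 genes were called (171, or 1.43%, at an unadjusted p under 0.05 in edgeR). Side by side, log2 fold changes in RV PAB-H and RV AOB-H were 3.28 and 0.81 for Nppa, 2.01 and 0.06 for Acta1, 2.23 and 1.29 for Penk and, for Tgfb2, 1.79 and 0.39. At the failing stage, RV PAB-F (6 libraries, 28 weeks of age) against RV Sham-F (9 libraries, 31 weeks) had 916 genes called higher (7.66%) and 409 lower (3.42%). Of the 467 genes called higher in RV PAB-H, 250 were also higher there, 53.5% of these genes and 27.3% of the 916. Of the 71 lower genes 61 were also lower, 85.9% of these and 14.9% of the 409. All 22 higher and 4 lower genes that did not rest on a single library were called in RV PAB-F in the same direction, and 19 of the 26 had a larger change there. Nppa changed by 6.17 (SE 0.60, adjusted p = 3.7e-12) and Nppb by 2.45 (SE 0.23, adjusted p = 6.26e-13) in RV PAB-F. The summed atrial markers, which include Nppa, were 7618 CPM in RV PAB-F replicate 1 and 83.24 to 1645 CPM in the other replicates. In RV Sham-F this sum was at most 77.97 CPM. How far the change of Nppa in RV PAB-F rests on replicate 1 was not tested. The difference between the stages was called for 0 genes by edgeR and by DESeq2. In edgeR 177 (1.48%) had an unadjusted p under 0.05, and 4 of the 26 were among these.

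**Figure D5:**
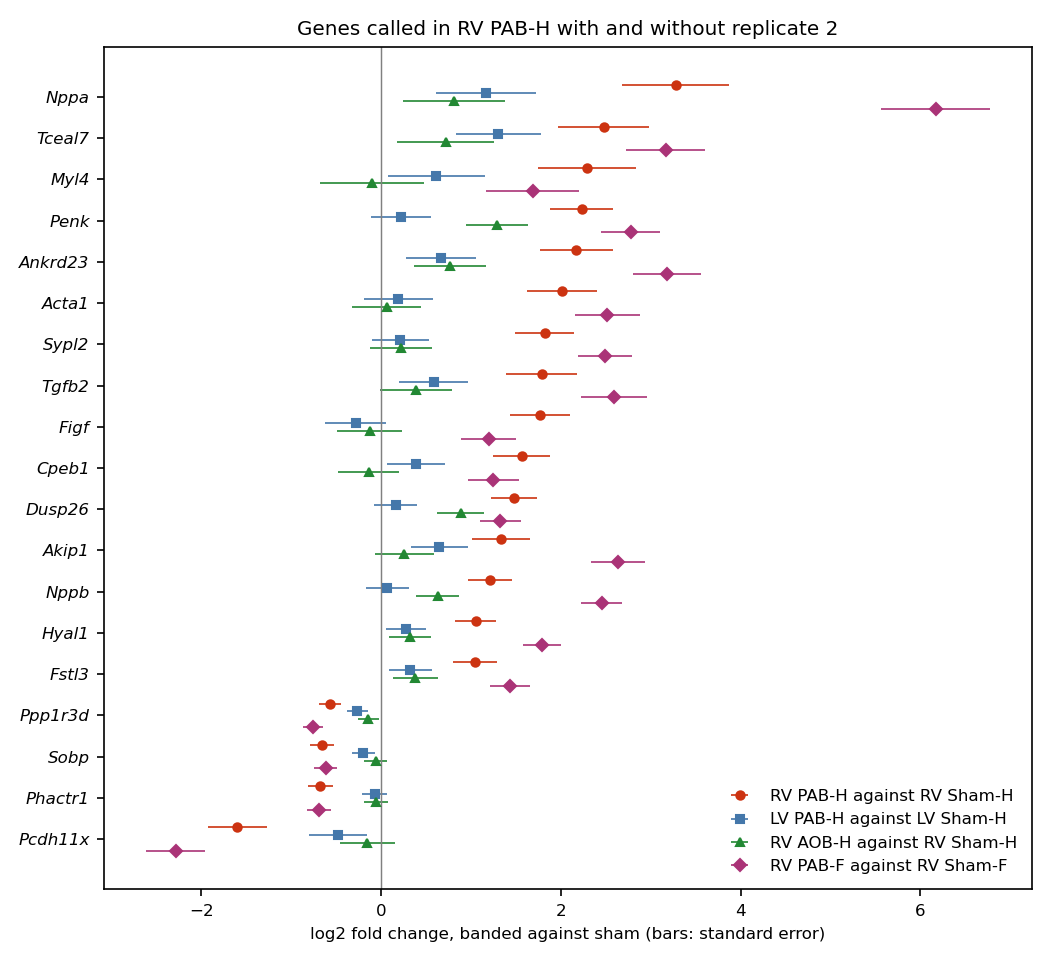
Log2 fold changes with standard errors of 19 genes called with and without PAB-H replicate 2, in 4 comparisons. Red circles are RV PAB-H, blue squares LV PAB-H, green triangles RV AOB-H (with the same sham libraries as RV PAB-H) and purple diamonds RV PAB-F. For Nppa the values are 3.28, 1.16, 0.81 and 6.17. In RV PAB-F, replicate 1 had by far the highest sum of atrial markers, which include Nppa.

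The sexes were not balanced between the groups. Between male and female Sham-H 3 genes were called (0.0251%), Ddx3, Eif2s3y and LOC680227, named here after their values were seen. In males alone (4 against 3) 433 genes were called higher (3.62%) and 36 lower (0.301%), and in females alone (2 against 4) 5 higher (0.0418%) and 0 lower, with 341 (2.85%) at an unadjusted p under 0.05. The 5 were Acta1, Penk, Crym, Sypl2 and Dusp26, of which Crym, a thyroid hormone-binding protein, is named after its value was seen. Log2 fold changes in males and females were 1.31 and 2.91 for Acta1, 1.46 and 3.12 for Penk and 3.32 and 3.197 for Nppa. Both libraries that stood apart, replicates 1 and 2, are male. The difference between the sexes was called for 0 genes (533, or 4.46%, at an unadjusted p under 0.05), so that no response is shown to differ by sex. DESeq2 also called 0 genes for it.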

How the data were processed

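Cardiomyocyte RNA of both ventricles was sequenced as ribosomal RNA-depleted libraries. The submitters' processing notes name Trim Galore, STAR, featureCounts and DESeq2 1.28.1. The authors counted no read that overlapped several genes, on an older rat build than GRCr8, and the treatment of strand and of reads that map to several places is not given in the sources used here. The authors deposited raw counts per gene, which were used for all tests, and FPKM values, which were used only for the 2 isoform shares. The signal columns that the authors deposited, counts divided by DESeq2 size factors, were not used. No column belonged to samples of another series (0 columns).

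Counts were fitted in R 4.3.3 with edgeR 4.0.16 (filterByExpr, TMM factors, quasi-likelihood test, Benjamini-Hochberg adjustment), with 1 mean for each of the 12 groups of the 82 libraries and no covariate. Normalized counts are counts divided by the TMM library size, times 13279120. Gene list levels are mean log2 CPM with a prior count of 2. Shares were compared by exact permutation in Python 3.11.15 with scipy 1.17.1. The fits were tested on simulated counts. Each animal gave its own library, and the lowest chi-square per gene between any 2 of the 13 libraries was 4.22, so no library was a copy. Same-numbered PAB-H and Sham-H libraries come from different animals by the labels, so the numbers do not pair them. The correlations of their deviations ran from -0.141 to 0.224. This range overlaps that of libraries of the same animal, so the correlations cannot decide the pairing. RV and LV libraries of the same animal are paired by the labels, with correlations of -0.141 to 0.316 in PAB-H and 0.0882 to 0.276 in Sham-H.

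Members and gene lists were chosen with earlier results of these data known. Named genes are the 15 higher and 10 lower ones of largest change called with and without PAB-H replicate 2 at a mean count over 50, the 3 of smallest adjusted p per list, 13 preset genes, the 5 whose change fell most without replicate 2 and the 5 of smallest p between the ventricles. Some genes that this rule names are not reported here. Alternatives were DESeq2 1.42.0 size factors and test, limma-voom (limma 3.58.1) with library weights, other filters, sex as a covariate, fits to the 13 libraries, a replicate block and leaving out each library. Promoters were read from a RefSeq table on GRCr8.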

Additional observations from a re-analysis of the deposited data

Results flagged for a closer look

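A value far from all others of its group was found in 15 of 102 groups of values examined in RV PAB-H and RV Sham-H. About 1 in 20 groups is expected for independent values with a normal distribution. The values here were not put on a log scale, and some groups share genes. The 15 are therefore not shown to exceed chance. Of the 15, 6 were in PAB-H replicate 2. They were Cilp at 677 normalized counts, Ltbp2 at 1364, Postn at 518, Serpinf1 at 501 and Thbs4 at 1218, and the sum of activated fibroblast markers at 762 CPM. All but Serpinf1 and the marker sum were picked because their change fell without this library, so that their distance follows from the choice. The marker sum includes Cilp, Ltbp2, Postn and Thbs4, so its distance is not independent of that choice. The matching values of the next highest banded library were 164 for Cilp, 230.0 for Ltbp2, 87.5 for Postn, 221 for Serpinf1 and 96.5 for Thbs4.

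PAB-H replicate 1 stood apart for 3 genes. Myl4, the atrial light chain, was high there with 414 normalized counts, next to 95.1 in the second highest library. Pcdh11x was at 167 and the next value at 74.1, whereas Tceal7 was low with 21.6, next to 70.3. In Sham-H, replicate 4 held 161 normalized counts of Ltbp2 and 32.6 of Thbs4, against at most 24.3 and 4.80 in the other sham libraries, and had the highest sums of red blood cell markers (51.9 CPM) and adipocyte markers (2.87 CPM). Replicate 7 had the highest sum of ventricular cardiomyocyte markers in Sham-H with 116430 CPM, and replicate 3 the largest total with 19570777 counts. The causes of these values were not tested.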

How the results depend on the processing

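The 538 genes called at an adjusted p under 0.05 became 457 with DESeq2 size factors, 641 with DESeq2 and 538 in a robust fit. They were 346 without a filter on low counts, 326 with sex as a covariate, 241 with an absolute log2 fold change over 1 added, 1642 in a fit to the 13 libraries and 2078 in limma-voom with library weights. Leaving out each library gave 27 to 1044, with 289, 27, 828 and 1044 without PAB-H replicates 1, 2, 5 and 6 and 351, 285, 265 and 277 without Sham-H replicates 3, 5, 6 and 7. Leaving out PAB-H replicates 1 and 2 together, chosen after seeing the data, gave 34. The study's criteria (unadjusted p under 0.01, absolute log2 fold change over 1, mean over 50) gave 217 genes, 44 with an adjusted p, 360 with a mean over 10, 77 in limma-voom, 121 with shrunken DESeq2 changes, 52 to 372 without single libraries (52, 344 and 372 without PAB-H replicates 2, 5 and 6) and 38 without replicates 1 and 2. The cause of these shifts was not tested.

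With the replicate number as a block, the counts were 1256 and 107 in the fit to the 13 libraries, though the numbers do not pair the animals. With the animal as a block, the response of RV against LV had 0 calls, also without the animal of replicate 2, and 19 without those of replicates 1 and 2. The failing against the compensated stage had 0 calls with the replicate block. No paired analysis was possible for males against females because they share no replicate number. These 3 differences had 0 calls under all other alternatives run. The difference in isoform share ranged from 9.01 to 12.04 percentage points for Myh7 and from 8.05 to 10.2 for Acta1 without single libraries.

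Among the named genes, the sign turned for 6 under the alternatives run, none of them called with all libraries. Beyond the named genes, 464 of the 467 genes called higher stayed above 0 without PAB-H replicates 1 and 2, which follows in part from their choice on the same libraries. Actc1 was at 0.034 in limma-voom, 0.11 without PAB-H replicates 1 and 2, and -0.081 to 0.059 without single libraries. Hbb-b1 was at 0.21 in limma-voom, 0.25 without both replicates, and -0.83 to 0.24 without single libraries. Nkg7 was at 0.095 in limma-voom and -0.49 to 0.17 without single libraries, Hbb at -0.14 with sex as a covariate and -0.43 to 0.44 without single libraries, Slc4a1 at -0.25 to 0.0051 without single libraries and 0.026 without both, and Sox10 at -0.044 without both.

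Precision is limited by 6 and 7 animals. At these depths low genes such as Gba3 rest on few counts.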

Other observations

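Several genes that were called whichever library was left out belong to no list and are described here after their values were seen. Setd7, a lysine methyltransferase, had 445 to 717 normalized counts in PAB-H (median 534) against 279 to 378 in Sham-H (median 317) and a log2 fold change of 0.82 (SE 0.14, adjusted p = 0.000354) in edgeR. Crym, which binds thyroid hormone in the cytosol, had 199 to 332 normalized counts in PAB-H (median 234) against 126 to 173 in Sham-H (median 149.7) and changed by 0.76 (SE 0.14, adjusted p = 0.00168). Slc9b2, a sodium-proton exchanger, had 5.41 to 29.3 normalized counts in PAB-H (median 16.5) against 2.25 to 7.63 in Sham-H (median 4.35) and changed by 1.87 (SE 0.42, adjusted p = 0.00678). Wnk4, a kinase that regulates ion cotransporters, changed by 0.79 (SE 0.17, adjusted p = 0.00519). Tln1, talin of the integrin adhesion site, had 6364 to 9810 normalized counts in PAB-H (median 8474) against 5121 to 6764 in Sham-H (median 5660) and changed by 0.53 (SE 0.11, adjusted p = 0.0046), and Anxa5, a phospholipid-binding annexin, by 0.50 (SE 0.11, adjusted p = 0.00831).

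In the paired fit of RV against LV without the animals of PAB-H replicates 1 and 2, which was chosen after seeing the data, some genes with the larger response in the RV were not among the 26. They included Gdf15, a secreted stress protein of the TGF-β family, at 1.88 on the log2 scale (SE 0.27, adjusted p = 0.0214), Gpnmb, a membrane glycoprotein, at 2.05 (SE 0.30, adjusted p = 0.0222), Ncam1, a neural cell adhesion molecule that cardiomyocytes also express, at 1.55 (SE 0.18, adjusted p = 0.00218), and Rcan1, an inhibitor of calcineurin, at 0.76 (SE 0.12, adjusted p = 0.0240), all by edgeR. With the animals of replicates 1 and 2 kept in, 0 genes were called in that paired fit, and Gpnmb was at 1.98 (adjusted p = 0.161), Ncam1 at 1.27 (adjusted p = 0.172) and Gdf15 at 1.39 (adjusted p = 0.202). In RV PAB-H against the sham RV, Gpnmb and Ncam1 were called, at 1.98 (SE 0.62, adjusted p = 0.0462) and 1.94 (SE 0.51, adjusted p = 0.0197), whereas Gdf15 at 1.11 (SE 0.41, adjusted p = 0.0925) and Rcan1 at 0.51 (SE 0.19, adjusted p = 0.0988) were not.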
